A study of Mus musculus with 9 samples.

Results

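The control cells of this series are RAW264, a mouse macrophage-like line that the labels trace to the RIKEN cell bank. They carry no mutation in the zinc finger gene Zscan10 and received no RANKL, the cytokine that turns such cells into bone-resorbing osteoclasts. The 3 control libraries were taken by their labels from the 9 RNA-seq libraries of the series, and the other 6 come from a pair of clones in which Zscan10 was mutated with CRISPR/Cas9, also without RANKL. The study asked how Zscan10 limits the formation of osteoclasts, judged by its title, and the control libraries are its starting state. The labels describe electroporation of a Cas9 vector and sorting of single cells, and do not say whether the control cells went through these steps. They also do not say whether the 3 libraries came from separate cultures, so the SD given with each mean (n = 3) measures the spread between these libraries, which may be technical. No groups are compared here and no test was run.

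Macrophages and osteoclasts share a myeloid ancestor. Signals through the receptor for M-CSF, encoded by Csf1r, keep these precursors alive, and signals through RANK, encoded by Tnfrsf11a, then induce the transcription factor NFATc1 and with it the acid, proteases and fusion proteins of the osteoclast. RAW264 is widely used for both lineages because it needs only RANKL for the second step. It was established from a tumour that the Abelson leukaemia virus raised in a male mouse.

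The libraries held 2458539, 2170847 and 2033945 reads that could be assigned to a gene, 6663331 in all. The count table lists 23420 genes, of which 12640 (54.0%) had at least 1 read and 10780 (46.0%) had none, and 10878 had a read in every library. A count of 0 allows up to 3 reads, which is 0.45 CPM (counts scaled to the total of a library) over the 3 libraries. Such limits account for counting error alone, because molecular identifiers were not used. Levels are given as FPKM, the authors' fragments per kilobase of transcript scaled to the depth of the library. FPKM allows levels to be set side by side between genes, but for short genes it ran above the value from reads divided by length, as given with the comparison of both scales. A mean FPKM of at least 1 was reached by 42.7% of the genes in the count table and of at least 10 by 26.8%, and the median was 0.106. Between the libraries the chi-square of the reads per degree of freedom was 1.29 for replicates 1 and 2, 1.11 for 1 and 3 and 1.19 for 2 and 3, where 1 would be counting error alone. In RNA from whole cultures, fewer cells that express a gene and less RNA per cell cannot be told apart.

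The gene with the highest level was Lyz2, which encodes the lysozyme that macrophages store and secrete. Its FPKM was 8801, 8550 and 8368 in the 3 libraries (mean 8573 ± 218), with 20763, 17887 and 16414 reads. Eef1a1, the elongation factor that brings aminoacyl-tRNA to the ribosome, followed at 8260.5 ± 27.2. The light and heavy chains of ferritin, the iron store of the cell, were close behind, with Ftl1 at 5482 ± 224 and Fth1 at 4721 ± 76.1. Fth1 came to 2554 when the reads themselves were divided by gene length and depth. Ppia, the cyclophilin A gene, stood between them at 4738 ± 56.6. S100a4, a calcium-binding protein of motile and myeloid cells, reached 3042 ± 53.8. Spp1, the secreted bone matrix protein osteopontin that macrophages also make, had an FPKM of 2569, 2489 and 2583 in the 3 libraries (mean 2547 ± 50.9). Each of these genes lay within a few percent of its mean in every library. Of the 30 genes with the highest level, 16 encode ribosomal proteins and the others include Ptma at 3496 ± 114, Gapdh at 3124 ± 116, Npm1 at 2894 ± 129.8, the chaperone Hspa8 at 2644 ± 69.4 and the glycolytic enzyme Pkm at 2380.3 ± 72.4. The spread between libraries over these 30 genes was 0.329% to 6.08% of the mean.

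**Figure D1:**
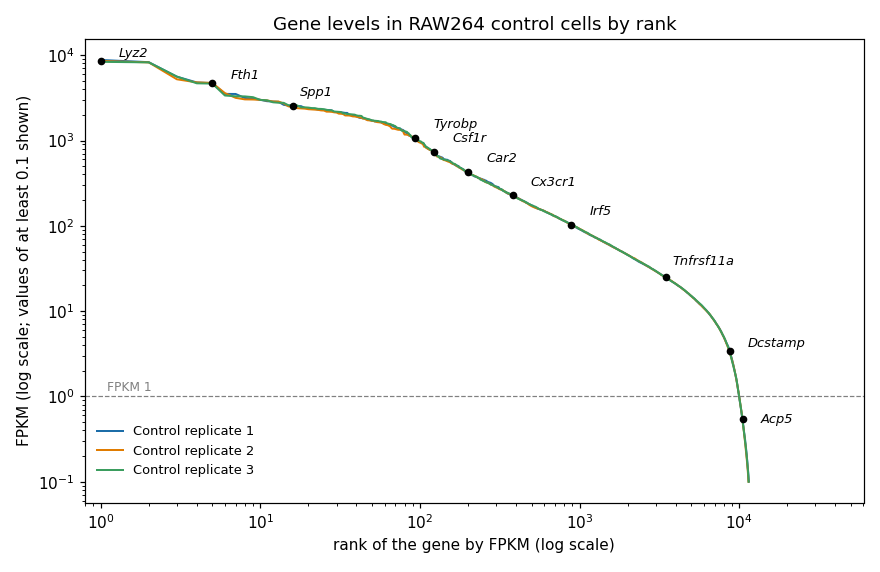
FPKM of each gene against its rank in each of the 3 control libraries, both axes on log scales, with the mean of named genes as black points. The 3 curves lie on each other from Lyz2 at 8573 down to the dashed line at FPKM 1, and Tnfrsf11a lies at 24.8 and Acp5 below 1.

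The transcriptome was concentrated in few genes. The 10 genes with the highest FPKM held 8.19 ± 0.0932% of all FPKM, the 100 highest held 34.8 ± 0.309% and the 1000 highest held 69.6 ± 0.208%. Counted as reads, which weight long transcripts more, the 100 genes with the most reads held 20.5 ± 0.12%. At the other end 3733 genes lay between an FPKM of 1 and 10 and together held 3.13% of all FPKM, with a median spread of 15.1% between libraries. The 924 genes at 100 or more had a median spread of 3.65%.

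Among the most abundant genes, Lyz2 differs from Eef1a1 and Ftl1 in the letters before its start. The 100 bases before the RefSeq start are shown for Lyz2 (chr10:117282273-117282372 on the minus strand), Eef1a1 (chr9:78481725-78481824 on the minus strand) and Ftl1 (chr7:45459887-45459986 on the minus strand), all from GRCm38.p6, the build that mm10 also names. They are printed because these genes lead the ranking among those with a RefSeq start within 50 bases of the listed 5′ end. They read 5′ to 3′ on the strand of the gene, and capitals mark each CG.
Lyz2: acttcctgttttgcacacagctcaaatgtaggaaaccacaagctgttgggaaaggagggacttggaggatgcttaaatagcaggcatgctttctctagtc
Eef1a1: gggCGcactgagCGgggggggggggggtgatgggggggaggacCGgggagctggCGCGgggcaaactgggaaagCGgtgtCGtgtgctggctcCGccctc
Ftl1: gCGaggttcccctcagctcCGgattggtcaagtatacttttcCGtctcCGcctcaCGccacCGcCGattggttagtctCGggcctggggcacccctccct
The shown stretch holds 0 CG in Lyz2 and 8 each in Eef1a1 and Ftl1. Over the whole window of 250 bases before to 50 after the start, Lyz2 has 1 CG, Eef1a1 22 and Ftl1 20. Fth1, also among the most abundant genes but not printed, has 4 in its window. That window sits at the start nearest to the 5′ end of the listed gene. Whether most Fth1 transcripts begin there was not tested. Such a window was found in RefSeq for 16344 genes, 69.8% of those in the count table. They held 15.7 ± 12.9 CG on average (SD over genes), against 22.4 ± 10.4 for the 724 genes of this set with a mean FPKM of at least 100 and 8.77 ± 10.7 for the 7035 without a read. Genes without a read thus had fewer CG on average, and Lyz2 combined a CG-poor window with the highest level.

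By family the largest share went to protein synthesis. The genes of cytosolic ribosomal proteins held 19.9 ± 0.2% of all FPKM, with 90 of 95 having a read, and their leader Rpl41 stood at 3324 ± 176. All 76 genes of mitochondrial ribosomal proteins had a mean FPKM of at least 10, with a median of 50.2. The proteasome was as complete, with 44 of 44 subunit genes read and a median of 140.2. Chaperonins and heat shock proteins held 1.96% and the ferritins 1.74% of all FPKM. Families of the lysosome and of leukocyte adhesion were uneven. Cathepsins had 14 of 23 genes with a read (60.9%, against 54.0% of all genes). They were led by Ctsz, a carboxypeptidase of lysosomes, at 590.0 ± 8.78. Integrins had 18 of 26 (69.2%), led by Itga4, a leukocyte integrin subunit, at 260.3 ± 4.83. Among interferon regulatory factors all 9 had a read, and among the 359 zinc finger genes named Zfp 309 (86.1%) had one.

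Families of specialised tissues were nearly silent at this depth. No read fell on any of 52 keratins or 10 globins. Of 1102 olfactory receptors 9 had a read, of 327 vomeronasal receptors 5, of 38 taste receptors 2 and of 56 defensins 1, against 54.0% of all genes. Of 19 Sox factors only Sox15 had a read, and of 6 Gata factors only Gata3. Several families that were otherwise mostly low had a clear leader. Col4a5, a basement membrane collagen chain, had 240, 199 and 212 reads and a mean FPKM of 15.1 ± 0.886 and was the only one of 44 collagens at 1 or more. The protocadherin Pcdh7, an adhesion molecule, had 31.9, 31.4 and 32.5 (20.7 on average from reads per length), with 1 other of 94 cadherins and protocadherins at 1 or more. Cldn11, a tight junction claudin known from myelin and testis, had 49.7, 56.8 and 61.9. Cxcl14, a chemokine of epithelial tissues, had 59.3, 61.8 and 53.9. These 4 genes were read in every library at similar levels. A second member at 10 or more was found among the claudins, Cldn25 with 248 reads, and among the CXC and other chemokines, Cxcl16 with 185 reads. Replication-dependent histones, whose mRNAs end without a poly(A) tail, had a read for 12 of 67 genes, led by Hist1h1c at 6.5 ± 0.283. The labels name an mRNA library kit, and its part in the histone counts was not tested.

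The transcription factors of the macrophage lineage were broadly expressed at moderate levels. Of 32 listed genes 29 had a read (90.6%, against 54.0% of all genes), 27 had a mean FPKM of at least 1 and 12 of at least 10. Spi1 was listed too but was not found among the counted genes under that name, so it was not assessed. The highest was Irf5, an activator of inflammatory genes, with an FPKM of 102.8, 99.2 and 108.9. Stat6, which relays the signal of interleukin-4, stood at 57.1 ± 2.92, and Mef2c, a MADS box factor, at 45 ± 2.05. Irf8, which directs progenitors to the monocyte fate and restrains osteoclast formation, had 21.0, 24.3 and 24.2. The granulocyte and monocyte factor Cebpa reached 17.2 ± 0.916. Cebpb, a related factor, was at 6.63 ± 0.587 and Runx1 at 6.25 ± 0.678. The median of the list was an FPKM of 6.44, against 83.8 for the surface and granule genes of macrophages and 0.106 for all genes, and Irf5 lay above both list medians. Maf, Batf3 and Tfec had no read, although Tfec was read in the clone libraries. Pparg, the nuclear receptor of fat cells and alveolar macrophages, had 2 reads.

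The receptors for colony stimulating factors were present and most of their ligands were not. Csf1r had an FPKM of 723.1, 726.5 and 743.5 (mean 731 ± 10.9) and 18747 reads over the 3 libraries. Csf2ra and Csf2rb, the chains of the GM-CSF receptor, followed at 18.5 ± 2.03 and 10.6 ± 0.313, and the G-CSF receptor Csf3r at 5.97 ± 1.05. Among the ligands Csf1, which encodes M-CSF, had 8 reads and Csf2 had 1. Csf3 and Il34 had none, nor had the receptors Flt3, Kit and Il3ra of stem cells and early progenitors. Csf1r thus stood far above the other receptors of the family in every library.

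Surface and granule genes of macrophages were the most complete list. Of 55 genes 54 had a read (98.2%), and 42 (76.4%) had a mean FPKM of at least 10, against 26.8% of all genes. Tyrobp, the signalling adaptor of myeloid receptors, had an FPKM of 1095, 1084 and 1070.2, and Trem2, a lipid receptor that signals through it, had 230.2, 215.0 and 238.3. Cd52 stood at 722 ± 50.2, the lipopolysaccharide co-receptor Cd14 at 551 ± 19.7 and the lysosomal protein Cd68 at 494 ± 8.84. The membrane subunits of the phagocyte oxidase reached 394 ± 2.31 for Cybb and 258 ± 23.4 for Cyba. The defining surface markers were lower. Emr1, the adhesion receptor used as a mouse macrophage marker, had 40.2, 40.1 and 40.9, the complement receptor chain Itgam 39.8, 44.0 and 39.6, and the high-affinity Fc receptor Fcgr1 48.5 ± 1.20. Lyz1, the close copy of Lyz2, was listed at 378 ± 16.8 but at 710.1 from reads per length, so how reads divide between these copies is uncertain. The scales also differed for Fcer1g, the shared chain of Fc receptors, at 436 ± 38.9 against 199, and for the scavenger receptor Msr1 at 158 ± 5.97 against 83.8.

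Some genes of mature tissue macrophages had 30 reads or fewer over the 3 libraries. The lipid carrier Apoe had 7, 11 and 4 reads and the integrin Itgax 17, 8 and 5. The complement subunits C1qa, C1qb and C1qc had 3, 4 and 4 reads over the 3 libraries, and Mertk, a receptor for dying cells, had 2. Ms4a7 had no read.

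**Figure D2:**
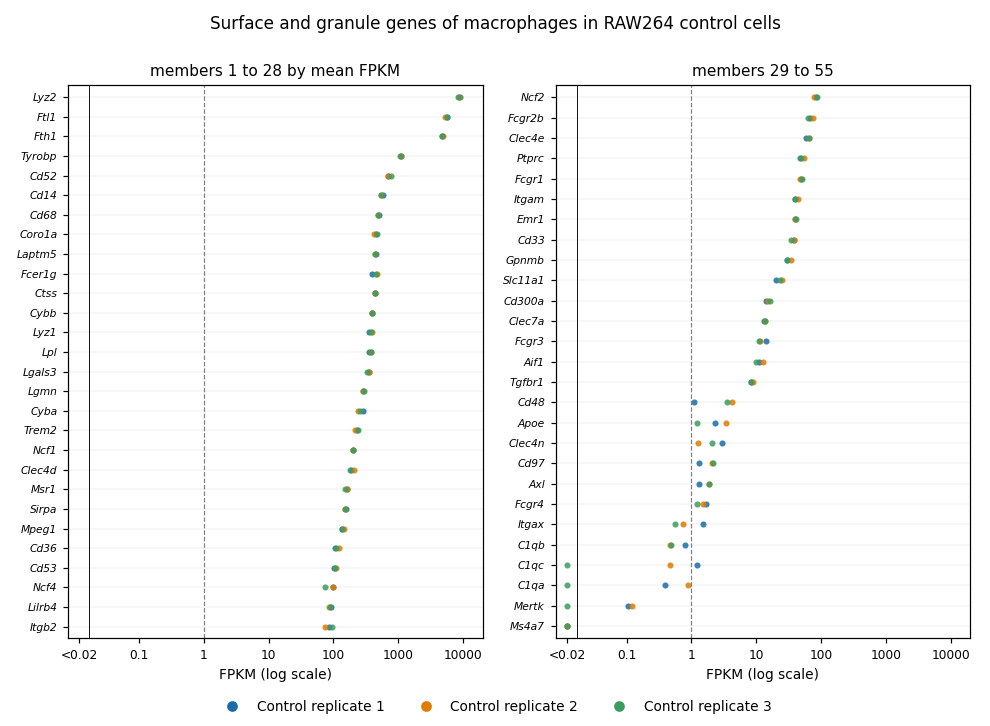
FPKM on a log scale of 55 surface and granule genes of macrophages, ordered by their mean, with a point for each of the 3 control libraries, and the lane at the left for values under 0.02. The points of a gene lie close together above FPKM 10 and spread at the foot of the list, where Apoe, Itgax, C1qa, C1qb, C1qc and Mertk rest on few reads.

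The windows before these macrophage genes held few CG on average. The 31 list members with a mean FPKM of at least 10 and a RefSeq window, Lyz2 among them, held 6 ± 5.55 CG with a median of 4, although Ftl1 had 20, Coro1a 19 and Lgmn and Lgals3 18 each. The 10 list members below an FPKM of 10 held 9.3 ± 9.32 and all genes without a read 8.77 ± 10.7. Few CG were thus not particular to the expressed members. Of the 31 windows 17 (54.8%) held the letters GAGGAA on either strand, against 27.5% of all windows. The share was no lower in the 10 members of the list below an FPKM of 10, where 6 (60%) held it. GAGGAA contains GGAA, the core that ETS family factors bind, and was searched on both strands of 300 bases in each window. A match is a description of letters and no evidence of binding. Shown are the 100 bases before the start of 4 members with a match there, from RefSeq on GRCm38.p6, with GAGGAA or its reverse TTCCTC in capitals. They lie at chr4:130913216-130913315 on the plus strand for Laptm5, chr17:48346301-48346400 on the plus strand for Trem2, chr3:106790150-106790249 on the minus strand for Cd53 and chr6:123289872-123289971 on the minus strand for Clec4e.
Laptm5: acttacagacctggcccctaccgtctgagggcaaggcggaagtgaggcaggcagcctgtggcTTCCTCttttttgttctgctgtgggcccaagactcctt
Trem2: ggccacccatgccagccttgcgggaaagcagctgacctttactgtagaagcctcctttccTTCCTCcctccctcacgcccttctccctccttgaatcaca
Cd53: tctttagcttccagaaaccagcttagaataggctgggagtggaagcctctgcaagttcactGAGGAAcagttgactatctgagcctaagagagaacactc
Clec4e: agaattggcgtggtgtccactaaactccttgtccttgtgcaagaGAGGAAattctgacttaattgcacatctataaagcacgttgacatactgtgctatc
Laptm5, a lysosomal protein of blood cells, had a mean FPKM of 445 ± 2.26, the tetraspanin Cd53 of 106 ± 3.95 and Clec4e, a lectin receptor for fungi and mycobacteria, of 62.7 ± 3.84. For comparison the 65 ribosomal protein genes with a window and a mean FPKM of at least 1 held 22.1 ± 7.24 CG and 26.2% of them held GAGGAA. The share was 23.8% in the 21 genes of RANK signalling with a window and a mean FPKM of at least 1, and 34.9% in 146 genes of other lineages without a read.

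Genes that mark macrophages of particular tissues were read about as often as all genes. Over 6 such lists, 69 genes in all, 35 had a read and 34 (49.3%) had none, against 46.0% of all genes, and 12 (17.4%) had a mean FPKM of at least 10, against 26.8% of all genes. Microglia genes divided sharply. Cx3cr1, the fractalkine receptor, had an FPKM of 220.4, 241.7 and 223.0. Tmem119 and P2ry12 had 1 read each and Sall1, Gpr34 and P2ry13 had none. Of the Kupffer cell genes the inhibitor of differentiation Id3 was at 47.9 ± 7.4 and Xlr at 68.0 ± 14.1, while Clec4f, Timd4, Vsig4 and Marco had no read. The alveolar list had 3 of 11 genes with a read and none at 10 or more. The peritoneal factor Gata6 had no read, whereas the retinoic acid receptor Rarb had an FPKM of 13.3, 13.1 and 11.3. Of the resident interstitial genes Igf1, the growth factor, was listed at 46.3 ± 3.18 and at 19.5 from reads per length. The mannose receptor Mrc1, Lyve1 and the haptoglobin-haemoglobin receptor Cd163 had no read.

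Iron recycling was represented more fully. Of 12 genes of red pulp macrophages and iron recycling 8 (66.7%) had a read, against 54.0% of all genes. A mean FPKM of at least 10 was reached by 6 (50%), against 26.8% of all genes. Hmox1, which opens the haem ring, had an FPKM of 103.6, 92.6 and 102.1. Blvra and Blvrb, the biliverdin reductases that act next, stood at 97.9 ± 5.26 and 74.1 ± 2.90. The haemoglobin scavenger Hp was at 23.9, 17.1 and 22.4, the ferroxidase Cp at 23.5 ± 1.13 (15 from reads per length) and the iron exporter Slc40a1 at 2.23 ± 0.722. The genes of haem breakdown were read at many times the level of the exporter. Spic, the factor that drives red pulp macrophages, had no read, nor had Vcam1, Hpx or Cd163.

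Monocyte genes were split. The calcium-binding proteins S100a4, S100a6 at 460 ± 6.54 and S100a10 at 230 ± 9.71 were abundant. Of the 18 genes 7 (38.9%) had no read, somewhat fewer than the 46.0% of all genes. Ly6c1, Ly6c2 and fibronectin Fn1 were among these 7. The chemokine receptor Ccr2, which brings monocytes out of the marrow, had 33 reads in all.

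Most genes that sense microbes were read. Of 26 genes of the Toll-like receptor pathway 22 (84.6%) had a read, against 54.0% of all genes. A mean FPKM of at least 10 was reached by 15 (57.7%), against 26.8% of all genes. Tlr2, the receptor for bacterial lipoproteins, had an FPKM of 157.6, 160.8 and 150.1. Tlr7, which detects single-stranded RNA, stood at 41.1 ± 2.26, Tlr13 at 19.0 ± 1.53 and the lipopolysaccharide receptor Tlr4 at 15.7 ± 1.61. The adaptor Myd88 was at 64.7 ± 10.2 and Unc93b1, which carries receptors to endosomes, at 93.4 ± 3.81. Tlr3 and Tlr8 were low, at 1.12 ± 0.234 and with 18 reads. Tlr5, Tlr11, Tlr12 and Lbp had no read.

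Genes listed as outputs of activated macrophages, not all of them secreted, reached a high level less often. Of 38 genes 23 (60.5%) had a read, against 54.0% of all genes. A mean FPKM of at least 10 was reached by 7 (18.4%), against 26.8% of all genes. The chemokine Ccl3 had an FPKM of 170.4, 159.7 and 159.2 and the cytokine Tnf 69.3, 78.1 and 79.8. Ccl4 stood at 73.0 ± 5.74, Ccl9 at 64.1 ± 0.918 and the prostaglandin synthase Ptgs2 at 16.6 ± 0.812. These transcripts were present in every unstimulated library. No read fell on Il6, Il10, Il12a, Il12b, Il23a or Ifnb1, and Il1b and Arg1 had 1 each. Nos2, the inducible nitric oxide synthase, had 6 reads. The interferon-induced chemokine Cxcl10 varied more, with 19, 6 and 16 reads. Saa3, an acute phase protein, had 21, 4 and 5 reads. Its mean FPKM of 8.68 ± 7.12 rested on replicate 1, without which it was 4.64. The RefSeq windows of 26 genes of this list held 6.73 ± 6.74 CG, 13 of them (50%) held GAGGAA, and 7 (26.9%) had TATAAA within 50 bases before the start on the gene's strand, a motif whose letters cannot overlap GAGGAA, against 3.36% of all windows. The list was chosen by function and not by level, so silent and active members stand together in these counts.

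Complement genes ranged from no read to a mean FPKM of 52.4. The properdin gene Cfp had a mean FPKM of 52.4 ± 1.51, Cr1l 52.3 ± 5.66 and C5ar1, the receptor for a complement fragment, 31.6 ± 4.90. C3 stood at 6.3 ± 0.283, and the regulator Cd59a had 14 reads. Of 18 genes 15 (83.3%) had a read, against 54.0% of all genes, with C1s, Cd55 and Serping1 having none. A mean FPKM of at least 10 was reached by 5 (27.8%), close to the 26.8% of all genes.

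The control cells expressed most of the genes listed for RANK signalling and osteoclast differentiation. Of 35 genes of RANK signalling and differentiation 33 (94.3%) had a read, 29 a mean FPKM of at least 1 and 24 (68.6%) of at least 10. Over all genes the shares with a read and at 10 or more were 54.0% and 26.8%. The 4 members of the list at an FPKM of 100 or more, Tyrobp, Csf1r, Fcer1g and Trem2, also stand in the macrophage lists. RANK itself, Tnfrsf11a, had an FPKM of 23.9, 24.1 and 26.5 with 280, 247 and 262 reads. Of the kinases behind it Btk stood at 64.8 ± 3.62 and Syk at 15.8 ± 0.621, with phospholipase Plcg2 at 53.2 ± 3.40. The adaptor Traf6 was at 10.7 ± 0.666 and the NF-kB subunit Nfkb1 at 48.7 ± 3.99. Nfatc1, the factor that RANKL induces to drive the osteoclast programme, was already read before any RANKL. It had an FPKM of 15.8, 17.5 and 18.5, or 10.4 on average from reads per length. Fos, an AP-1 subunit that osteoclasts require, had 16.5, 16.0 and 13.2, and Mitf, a further factor of the lineage, 17.1 ± 0.978. Prdm1, which silences inhibitors of osteoclast formation, and Mycl1 had no read, and the receptor Oscar had 1. The windows of 21 of the members at FPKM 1 or more held 23.5 ± 12.1 CG.

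The effectors of fusion and resorption divided into a high and a nearly silent group. Of 32 genes 27 (84.4%) had a read and 16 (50%) a mean FPKM of at least 10, against 54.0% and 26.8% of all genes. Car2, the carbonic anhydrase that supplies protons for acid secretion, had an FPKM of 430.8, 432.4 and 426.6. The tetraspanin Cd9 stood at 243.8 ± 4.9 and the protease Adam8 at 115.8 ± 2.1. Tcirg1, a subunit of the osteoclast proton pump, was at 52.0, 45.6 and 44.5, the chloride transporter Clcn7 at 10.3 ± 0.244 and its partner Ostm1 at 12 ± 1.42. The enzymes that define the mature cell were not detectable beyond a few reads. Acp5, the tartrate-resistant acid phosphatase, had 3, 3 and 0 reads. Ctsk, the collagen-cleaving cathepsin K, had 0, 1 and 1, and the integrin Itgb3, partner of Itgav, had 1, 3 and 3. Itgav itself was at 16.1 ± 1.54. The kinase Src had 1 read and the fusion protein Ocstamp 5, whereas Dcstamp, its relative, had 22, 17 and 16 reads and an FPKM of 3.43 ± 0.107. Mmp9, Mmp14, the calcitonin receptor Calcr, Siglec15 and Slc9b2 had no read.

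**Figure D3:**
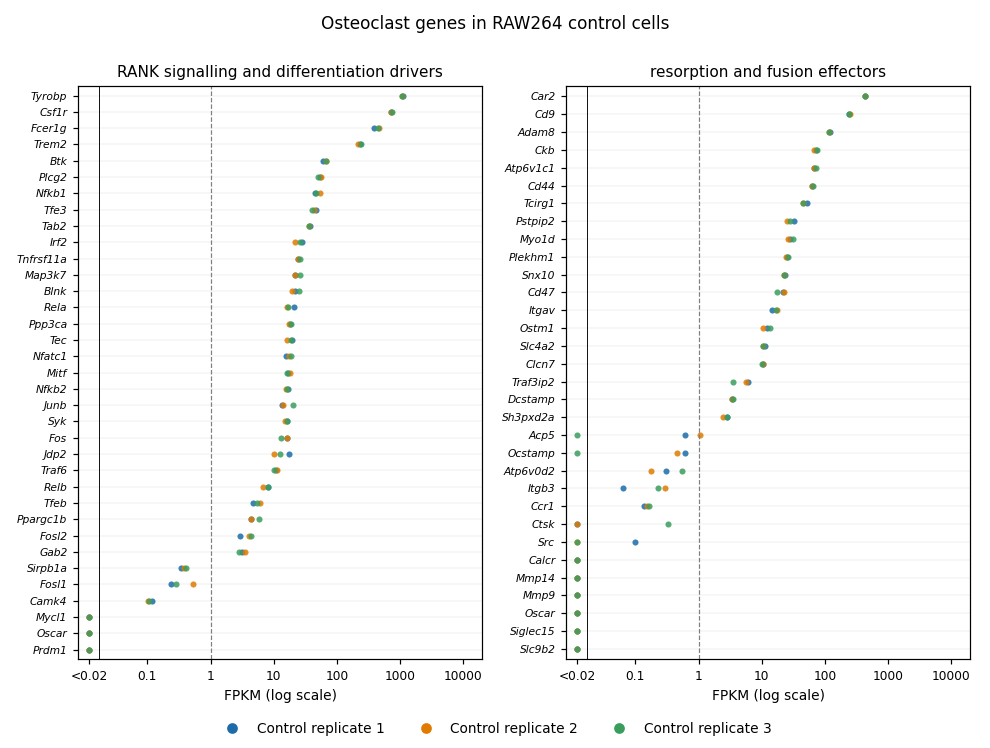
FPKM on a log scale of the genes of RANK signalling and differentiation (left) and of resorption and fusion (right), ordered by mean, with a point for each of the 3 control libraries and the lane at the left for values under 0.02. Most drivers lie between 10 and 100, while the effectors run from Car2 at the top to Acp5, Ctsk and Itgb3 under 1 and a foot of genes without a read.

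Effectors without a read differed in the CG content of their start regions. Shown are the 100 bases before the RefSeq start of 3 of the 5, at chr6:3764714-3764813 on the minus strand for Calcr, chr14:54431498-54431597 on the plus strand for Mmp14 and chr3:135307600-135307699 on the plus strand for Slc9b2, on GRCm38.p6 with each CG in capitals.
Calcr: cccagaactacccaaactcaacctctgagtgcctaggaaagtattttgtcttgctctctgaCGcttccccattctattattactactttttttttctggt
Mmp14: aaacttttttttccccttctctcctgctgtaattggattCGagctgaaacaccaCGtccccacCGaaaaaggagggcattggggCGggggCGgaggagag
Slc9b2: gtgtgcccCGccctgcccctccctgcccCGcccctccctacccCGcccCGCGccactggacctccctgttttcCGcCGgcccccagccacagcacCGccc
Over the 300-base windows Calcr had 4 CG, Mmp14 10 and Slc9b2 14, beside 8.77 ± 10.7 over all genes without a read and 23.4 ± 10.9 over genes with a mean FPKM of 10 to 100. All 3 values lie within the spread of the genes without a read.

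Genes that restrain osteoclast formation were expressed beside the drivers. Of 28 genes 24 (85.7%) had a read and 12 (42.9%) a mean FPKM of at least 10, against 54.0% and 26.8% of all genes. Rbpj, the Notch pathway factor that limits osteoclast formation, led with an FPKM of 116.5, 119.1 and 120.4. Nfkbia, the inhibitor of NF-kB, was at 93.5 ± 1.82 and the inhibitory receptor Lilrb4 at 88.9 ± 3.7. Lrrfip1 stood at 44.3 ± 2.77 (24.7 from reads per length), Id2 at 30.8 ± 4.87 and Bcl6, a repressor, at 12.5 ± 0.575. The decoy receptor for RANKL, Tnfrsf11b, had no read, nor had Ifnb1, Il10 or Fstl3. Of 16 genes of osteoblasts and stroma, the cells that supply RANKL in bone, 12 (75%) had no read, against 46.0% of all genes. RANKL itself (Tnfsf11) was among these 12, and Spp1 was the only list member at FPKM 1 or more.

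Genes of other lineages were mostly unread. Over 17 lists with 282 genes, each counted in 1 list, 195 (69.1%) had no read, against 46.0% of all genes, and 11 (3.90%) had a mean FPKM of at least 10, against 26.8%. None of 16 epithelial genes had a read. Of 16 genes of NK and cytotoxic cells 15 had none, and of 16 genes of mast cells, basophils and eosinophils 15 had none. Of 17 neutrophil genes 13 had none, among them Elane, Mpo, S100a8, S100a9 and Ngp. Of 24 T cell genes 13 (54.2%) had none, including Cd3e, Cd3g and Cd4, and Cd3d had 1 read. Of 21 B cell genes 15 had none, including Ms4a1 and Pax5. By contrast 8 of 19 dendritic cell genes (42.1%) and 7 of 16 muscle genes (43.8%) had none, no more than the 46.0% of all genes. The share was 50% in the adipocyte list and in the list of megakaryocytes and platelets. Over 6 lists of tissues outside blood, 96 genes in all, 71 (74.0%) had no read and 1 had a mean FPKM of at least 10.

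**Figure D4:**
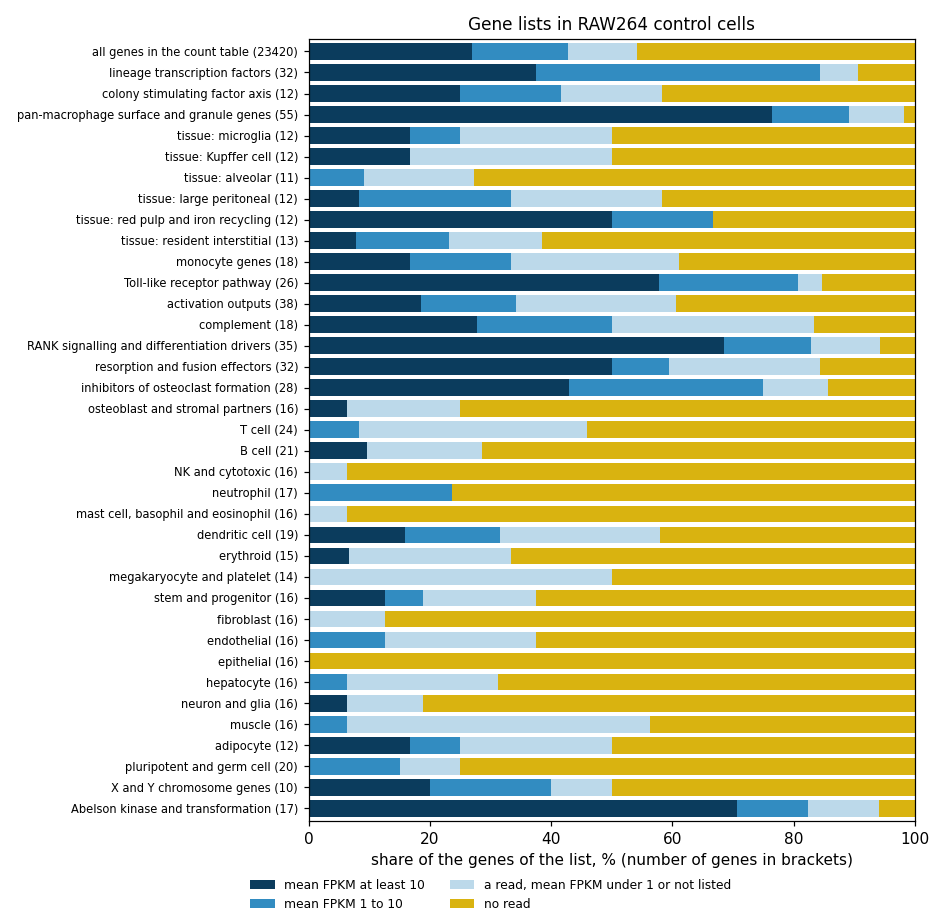
Share of the genes of each list, in percent, by mean FPKM over the 3 control libraries (at least 10, 1 to 10, under 1 with a read) and without a read, beside all genes of the count table in the top bar, with the number of genes in brackets. The macrophage surface genes and the RANK drivers are mostly dark, the epithelial list has no read at all, and in the top bar the 58 genes with no read but a listed FPKM of 1 or more stand with the FPKM bands.

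The exceptions, genes with a mean FPKM of at least 10, were few and clear in every library. Cd72, a receptor first known from B cells, had an FPKM of 215.9, 212.9 and 221.5, and the adaptor Blnk had 22.1, 19.6 and 24.9. The B cell receptor chains Cd79a and Cd79b had 1 read each. Lmo2 and Tal1, partners in a transcription complex of blood stem cells and red cell precursors, had 53.1, 53.1 and 59.1 and 12.5, 11.7 and 12.5. Gata1 and Klf1, factors of red cell precursors, had 0 reads and 1. Mbp, the gene of myelin basic protein that also yields transcripts of blood cells, had 31.5, 34.5 and 34.4, with Olig2 and Sox10 at 0 reads. Of dendritic cell genes Bst2, a tethering factor against viruses, stood at 84.5 ± 11.4, Tcf4 at 15.1 ± 0.263 and Cd83 at 12.4 ± 0.62. Of adipocyte genes the lipase Lpl, which macrophages also make, stood at 371 ± 13.4 and Adipor2 at 27.3 ± 1.01, with Adipoq and Plin1 at 0 reads. Of the 19 dendritic cell genes 11 (57.9%) had a read, close to the 54.0% of all genes. Flt3, Clec9a and Ccr7 were among the 8 without a read.

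Of 17 genes tied to growth and transformation 16 (94.1%) had a read, against 54.0% of all genes. A mean FPKM of at least 10 was reached by 12 (70.6%), against 26.8% of all genes. Mycn, the MYC family oncogene, had an FPKM of 155.9, 159.8 and 175.9, whereas Myc had 0.323, 0.553 and 1.55, with 1, 3 and 8 reads. The cyclin Ccnd1 stood at 162.5 ± 6.02 and Trp53, the p53 gene, at 150.6 ± 4.91. Cdkn2a, a tumour suppressor locus often lost in cell lines, had no read. The kinase Abl1 was at 11.3 ± 0.907, and reads of the gene and of a viral copy cannot be told apart in gene counts. Of the Y chromosome genes Eif2s3y had 39.6, 50.4 and 47.4 and Ddx3y 17 ± 0.85, and Xist, the RNA of the inactive X, had no read.

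Zscan10, the gene mutated in the clones, had no read in the control libraries. With 6663331 reads a level above 0.45 CPM would have exceeded the 3-read limit, so expression was not detectable at this depth. Of the 17 genes of the Zscan group 10 (58.8%) had a read, close to the 54.0% of all genes, led by Zscan26 at 11 ± 0.406. Of 20 genes of pluripotent and germ cells, to which Zscan10 is best known to belong, 15 (75%) had no read, against 46.0% of all genes. Pou5f1, Sox2 and Zfp42 were among these 15. Nanog was among the 5 with a read, of which 2 had only 1 to 3 reads. A mean FPKM of at least 1 was reached by 3 of the 20. Dnmt3l, a cofactor of DNA methylation in germ cells, had 9, 13 and 6 reads and an FPKM of 2.46 ± 0.659.

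FPKM and reads told the same story for most genes but not for all. Of the 100 genes with the highest FPKM 91 were also among the 100 highest by reads per length, the recovered reads divided by gene length and depth. The median ratio of FPKM to that value was 1.48 for genes shorter than 500 bases and 1.00 for genes of 4000 bases or more, so the ranks of short genes, ribosomal proteins among them, are set partly by the scale. A further 27 genes had a mean FPKM of at least 10 and no read, and in all 27 at least 83.9% of the exon length lay within exons of another listed gene. They include Rpl26 at 385 ± 23.0 with Gm15772 at 2122 ± 74.2 on the same exons, and Oaz1, the antizyme that controls polyamines, at 158 ± 27.2 with its listed copy Oaz1-ps at 219.9 ± 58.4. For such genes the reads could not be used and the split of FPKM between the partners is uncertain. Over all genes 12% shared any exon base with another gene. None of the 283 list genes without a read had a listed FPKM of 0.1 or more, and 8 of them lay by at least 50% of their length in another gene, the globins Hbb-b1, Hbb-b2, Hba-a1 and Hba-a2 and the genes Ear2, Fstl3, Cd247 and Klra8. The opposite case, at least 10 reads with an FPKM of 0, was met in 16 genes, of which 13 are shorter than 200 bases. The longest was Syne1, a nuclear envelope protein, with 226, 197 and 180 reads.

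**Figure D5:**
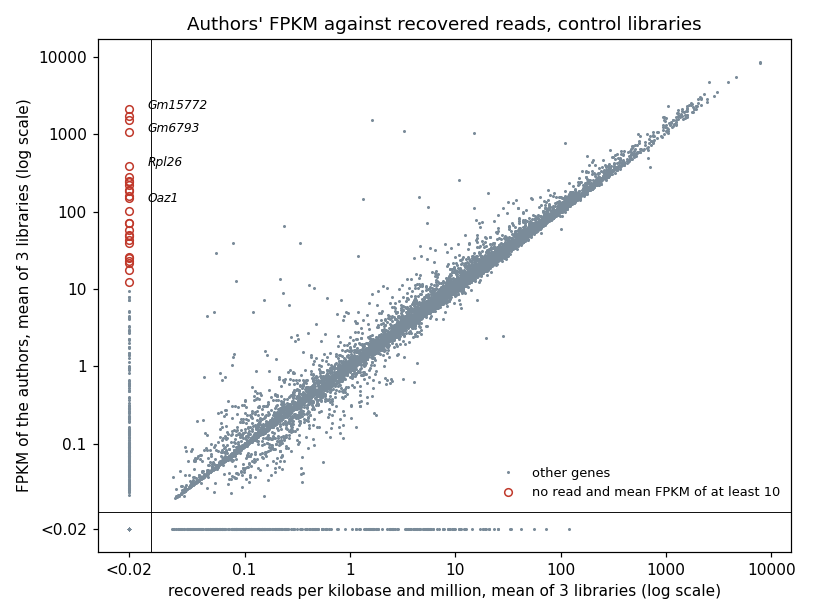
Mean FPKM of each gene as listed by the authors against its mean recovered reads divided by gene length and depth in the 3 control libraries, both on log scales, with lanes at the left and foot for values under 0.02. Most genes follow a line, and the 27 open circles at the left are genes with no read and a mean FPKM of at least 10, from Gm15772 at 2122 down.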

How the data were processed

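Per the labels' protocols total RNA of RAW264 cells was treated with DNase and used for stranded mRNA libraries on an Illumina MiSeq. Without giving a role to each, the submitters' processing notes list edgeR 3.20.1, featureCounts 1.4.6, Cufflinks 2.1.1, TopHat2 2.0.22 and the mm10 build. Whether counting used strand is not given in the sources used here. The deposited FPKM values were scaled by the authors within each table, and the table of control with the exon 2 clone was used. The deposited signal values come from gene counts, to which the authors applied a single TMM factor for each library, as the table is named. Dividing each column by its smallest value above 0 gave whole numbers for 100% of values within 1e-06, which are the reads printed here. Gene lengths and exons are other columns of the same deposited table, per the file headers.

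Means and SDs over 3 libraries, ranks, shares and chi-square values were computed in Python 3.11.15 with pandas 2.3.3, numpy 2.4.6 and scipy 1.17.1, and tested on simulated data. From the FPKM values, 27 entries whose gene names had turned into dates were left out. Depth was 2033945 to 2458539 reads per library. The 36 lists hold 648 symbols, of which 643 were in the table, and the rest, Spi1 among them, were not analysed here. The lists, and the 3 control libraries as the subject, were chosen with earlier results of these data known. Named genes are the 30 highest by FPKM with at least 10 reads in every library, list members, the highest member of each of 50 families, genes whose FPKM and reads disagree most, and Zscan10. Alternatives were other thresholds, the control columns of the table with the exon 5 clone, medians, reads divided by length and depth, thinning, and leaving out each library. Start windows are from RefSeq on GRCm38.p6, matched by symbol, chromosome and strand, taking the start nearest to the 5′ end of the listed gene. Only genes with printed stretches were held to a start within 50 bases of that end. All other counts of CG, GAGGAA and TATAAA had no such limit. A further 12 columns of sample values were not matched to a sample and not used. Some list members are included in the counts and not reported by name here.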

Additional observations from a re-analysis of the deposited data

Results flagged for a closer look

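Tfec, a transcription factor of the MiT family in macrophages, had 0 reads in the 3 control libraries and 194 over the 6 clone libraries. It had 29, 25 and 47 reads in the clone labelled exon 2 and 31, 27 and 35 in the clone labelled exon 5. It was singled out because it gave a signal in libraries that the description of the control cells does not use. Of the 283 list genes without a control read 42 had a read in a clone library, and after Tfec the highest sum was 13, for the neutrophil protein S100a8. These 283 were picked for having no control read, and the clone libraries held 12800242 reads against 6663331 in control. The same share over all genes without a control read was not computed, so the count of 42 cannot be judged. The difference between clones and control was not tested here.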

How the results depend on the processing

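The share of the 100 highest genes depended on the scale, at 34.8% of FPKM and 20.5% of reads. The other totals kept within 1.5 times under every alternative run. Genes with a read numbered 12640, against 9174 with at least 10 reads in every library and 12240 to 12313 with a library left out. Genes at the FPKM threshold numbered 10026, against 9372 at a threshold of 2 and 10544 at 0.5. List genes without a read ranged from 69 to 95 for macrophage, 21 to 31 for osteoclast and 189 to 232 for other lineage lists. Leaving out Rn45s and Lars2, and leaving out genes overlapped by at least 50%, were chosen after seeing the data. Of 277 named genes with at least 30 reads, 14 moved by over 1.5 times on the scale of reads per length, by a factor of 0.418 to 1.88, and 1, Saa3, when a library was left out. No named gene with that depth moved so far in the control columns of the other table, where ratios were 1.00458 to 1.00525. Those columns hold the same libraries under another scaling, so they are no independent check. No paired analysis was possible because no groups were compared. Genes with up to 3 reads cannot be told from genes without expression at this depth.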

Other observations

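A few abundant RNAs differed between the control libraries more than others. Of 4766 genes with at least 300 reads the median spread was 5.32% of the mean, and 12 differed by more than 1.5-fold between the highest and the lowest library. Rn45s, the precursor of ribosomal RNA, had 5732, 1981 and 3340 reads. Lars2, a mitochondrial leucyl-tRNA synthetase whose listed gene is known to collect ribosomal RNA reads, had 1997, 956 and 1046. The nuclear RNA Malat1 had 906, 538 and 546. Replicate 1 was the highest for all 3. Without Rn45s and Lars2 the chi-square per degree of freedom over the 3 libraries was 1.11 in place of 1.19. The levels of these RNAs moved together across libraries, and their part in other values was not tested.

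Small RNAs were read unevenly in these mRNA libraries. Of 119 listed snoRNA genes 74 had a read, and of 663 listed miRNA genes 51 had one, beside 54.0% of all genes.

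The Hox genes had 13 of 39 with a read (33.3%, against 54.0% of all genes), led by Hoxb7 at 9.11 ± 1.8. MHC class II genes had 8 of 9 with a read (88.9%). Only 1 (11.1%, against 26.8% of all genes) had a mean FPKM of at least 10, H2-DMa at 10.4 ± 0.856. MHC class I was led by H2-D1 at 154 ± 3.56, or 64.3 from reads per length. The sodium channel Scn11a stood at 3.88 ± 0.165, and 2 other members of its family of 14 had a read. The purinergic receptor P2ry6 stood at 37.6 ± 2.6. Among DNA methyltransferases Dnmt1, which copies methylation at replication, stood at 93.9 ± 2.29 and all 4 genes had a read.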
